A study of Mus musculus with 13 samples.

Results

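Alveolar macrophages are the resident phagocytes of the air spaces, and the 10 genes described here mark them in the mouse lung: Fabp1, Ear1, Ear2, Krt79, Mrc1, Plet1, Chil3, Marco, Siglecf and Pparg. The rule took the rows of the gene tables with these symbols, which found 10 of 10 symbols among 20270 genes. It used no measured value, but the 10 genes were chosen with earlier results of these data known. RNA was sequenced from the lower right lung lobe of 13 mice on a C57BL/6J background. The control group held 4 wildtype mice, for which the methods give saline as the vehicle, and the WT bleomycin group held 5 wildtype mice at 14 days after 1 oropharyngeal dose of bleomycin (1 U/kg), a drug that injures the lung and leads to fibrosis. The CB1R KO bleomycin group held 4 Cnr1-/- mice, which lack the cannabinoid receptor CB1R, at the same dose and day. The wildtype mice were male and 13 weeks old by the methods, which give no such detail for the CB1R KO mice. The deletion is present in the whole animal and not in macrophages alone, and no KO lung free of bleomycin is analysed here, so genotype and the response to bleomycin cannot be told apart in the KO group. Among the WT bleomycin libraries 2 carry the number 4 in their labels, 4 and 4-B2, and the labels do not say what B2 stands for. Control library 26 and WT libraries 4-B2 and 7 are labelled in mixed case and the other 10 libraries, all 4 of CB1R KO among them, in lower case, so a difference in handling that went with the style of the labels would be partly mixed with genotype. The RNA is from whole lung, in which fewer macrophages and less RNA per macrophage cannot be told apart.

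These cells settle in the air spaces around birth and renew themselves there. GM-CSF made by type II epithelial cells acts through its receptor to induce the nuclear receptor PPARG, and PPARG in turn switches on the lipid handling that lets the cells clear surfactant. When resident cells are lost after injury, blood monocytes can enter the air spaces and take on alveolar macrophage genes over time.

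Library totals were between 14615904 and 16662580 estimated counts in 12 libraries and 53463884 in CB1R KO library 11. Sftpc, the surfactant gene of type II cells, was measured at 14306 to 29304 TPM, a measure of transcripts scaled for length and library, over the 13 libraries, so the defining gene of lung epithelium was present in each. Cnr1 was measured in every group, at 0.403 to 1.05 TPM in control, 0.848 to 1.85 TPM in WT bleomycin and 0.648 to 1.50 TPM in CB1R KO bleomycin libraries. The tables do not show which part of Cnr1 the reads came from, so its level does not check the genotype and the directions below rest on the labels.

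Ear1 and Ear2 are paralogs of the RNase A family, and the stretches around their start sites are shown because the pair is almost identical there while the measured levels of the genes parted after bleomycin. Both run from 250 bases before to 50 bases after the RefSeq start site on GRCm38.p6, at chr14:43819590-43819889 on the minus strand for Ear1 and chr14:44102404-44102703 on the plus strand for Ear2, and capitals mark the 3 aligned bases that differ.
Ear1: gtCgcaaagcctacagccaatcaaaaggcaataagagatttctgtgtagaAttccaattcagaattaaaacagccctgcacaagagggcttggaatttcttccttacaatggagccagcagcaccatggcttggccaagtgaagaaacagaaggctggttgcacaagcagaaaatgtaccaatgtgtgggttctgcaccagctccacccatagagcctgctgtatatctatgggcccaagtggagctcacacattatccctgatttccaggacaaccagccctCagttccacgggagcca
Ear2: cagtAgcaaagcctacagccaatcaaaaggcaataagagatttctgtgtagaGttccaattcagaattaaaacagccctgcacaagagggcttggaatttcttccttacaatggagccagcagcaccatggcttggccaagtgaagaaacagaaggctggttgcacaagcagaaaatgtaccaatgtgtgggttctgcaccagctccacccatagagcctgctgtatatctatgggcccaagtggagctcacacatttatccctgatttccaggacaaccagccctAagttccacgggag
Of 297 aligned bases, 294 were identical (99.0%). The 3 bases of each stretch without a partner are not marked, and those of Ear2 include an extra t inside the stretch. The start region of Fabp1 (chr6:71199629-71199928, plus strand, same build) is shown because Fabp1 had the lowest level relative to control of the 10 genes. Capitals mark AGGTCA, a short letter run that nuclear receptors such as PPARG can bind, read on either strand.
Fabp1: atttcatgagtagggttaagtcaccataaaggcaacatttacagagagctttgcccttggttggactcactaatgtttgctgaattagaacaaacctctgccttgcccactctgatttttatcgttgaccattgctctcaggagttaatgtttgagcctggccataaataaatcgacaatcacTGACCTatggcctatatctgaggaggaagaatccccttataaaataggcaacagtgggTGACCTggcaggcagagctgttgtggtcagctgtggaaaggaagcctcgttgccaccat
AGGTCA stood in 4 of the 12 RefSeq start regions of the 10 genes, those of Fabp1, Plet1 and 2 of the 3 of Pparg, against 16.3% of all 32851 start regions of the same length. GAGGAAGT, a longer form of the site that the myeloid factor PU.1 binds, stood in 0 of the 12, against 3.20% of all start regions. Only this exact run was searched, so shorter or differing forms of the site may be present. Such a match is a description of letters and not of binding.

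In control lungs the genes spanned a wide range of levels per transcript length. Chil3, which encodes the secreted chitinase-like protein Ym1, made up 62.8% of the summed TPM of the 10 genes, with 738 ± 590 TPM (mean ± SD, n = 4). Ear2 followed with 227 ± 58.4 TPM, then Ear1 with 67.2 ± 9.14 TPM, Plet1 with 55.7 ± 6.79 TPM and Mrc1 with 25.6 ± 5.03 TPM. Fabp1 with 18.8 ± 3.01 TPM, Pparg with 11.8 ± 1.29 TPM, Krt79 with 11.1 ± 2.20 TPM, Marco with 10.6 ± 8.55 TPM and Siglecf with 9.01 ± 1.35 TPM were lowest. Chil3 lay above Ear2 in every control library in spite of its wide SD. Control library 21, at 1621 TPM of Chil3, raised both the SD and the share of 62.8%. The other controls stood at 402 to 466 TPM. From Pparg to Siglecf, each gene differed from the next by less than the larger of their SDs. After bleomycin Fabp1 was last in both groups, at 1.47 ± 0.771 TPM in WT (n = 5) and 2.69 ± 0.434 TPM in CB1R KO lungs (n = 4).

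WT bleomycin and control lungs were compared to ask how the genes stood 14 days after injury. The list split 3 ways: Fabp1, Ear1 and Krt79 fell to between 7.84% and 18.8% of control, Mrc1 and Plet1 rose 2.08-fold and 1.59-fold, and Ear2, Chil3, Marco, Siglecf and Pparg did not pass the test. That is 5 of 10 genes called at an adjusted p under 0.05 by edgeR's quasi-likelihood test, 2 higher and 3 lower, where 48.9% of all 15315 genes tested were called (25.0% higher, 23.9% lower). All 10 passed the filter on low counts. The median log2 fold change of the 10 genes was -0.06 and that of all genes tested -0.01. The share of the 10 genes called was thus near that of all genes. At an unadjusted p under 0.05 the count was 5 as well, where 55.2% of all genes passed. Values for single libraries below are CPM, which are counts scaled to the library total and to TMM factors, and fold changes are log2 with the standard error (SE) and the adjusted p (Benjamini-Hochberg over all genes tested).

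**Figure D1:**
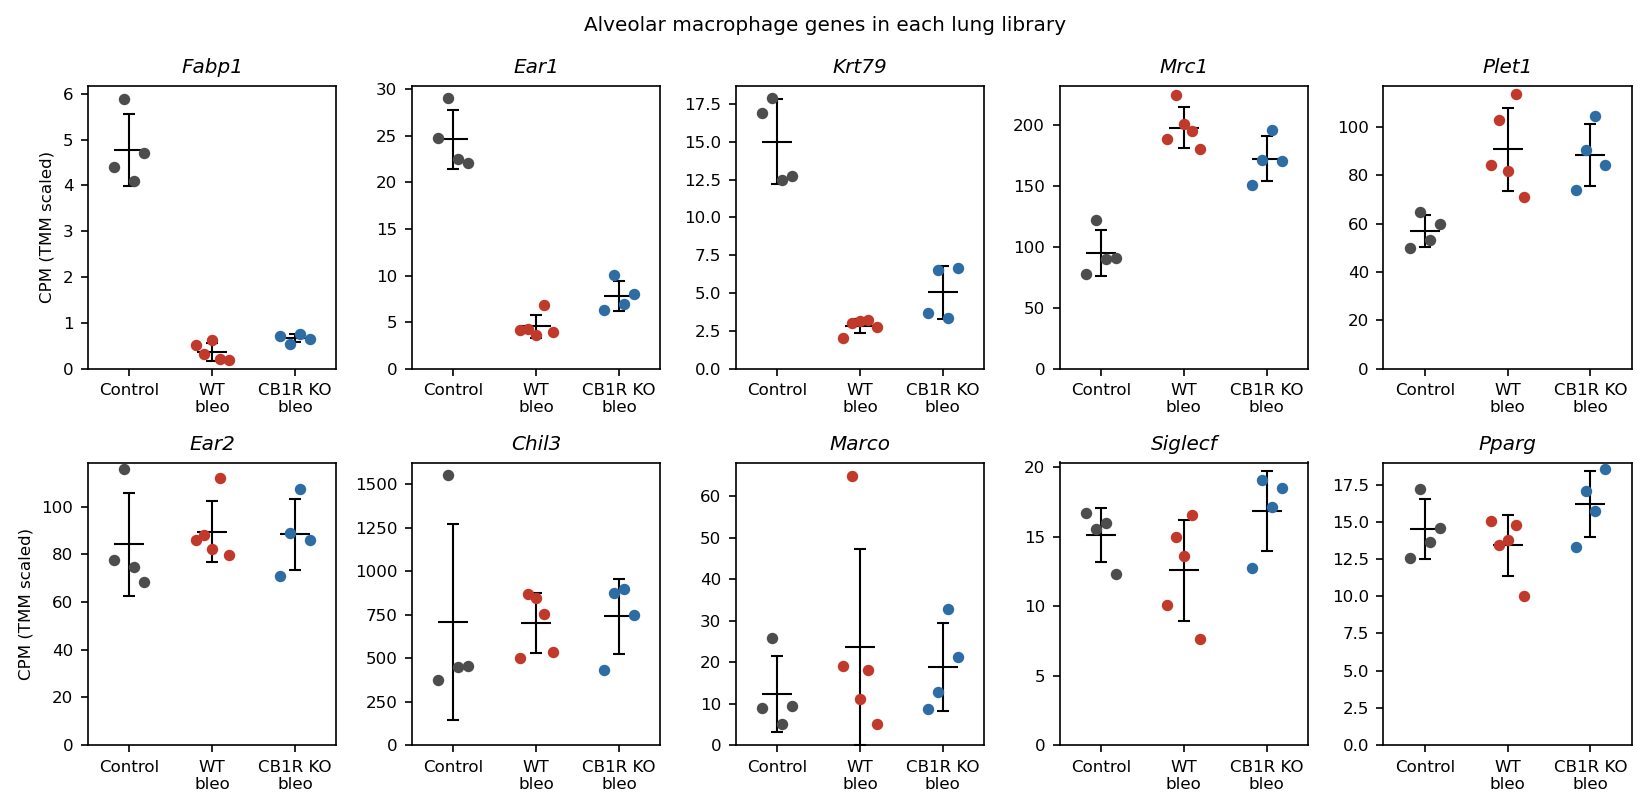
CPM (linear axis from 0) of each of the 10 genes in the 4 control, 5 WT bleomycin and 4 CB1R KO bleomycin libraries, 1 point per library, with the group mean and SD. Fabp1, Ear1 and Krt79 lie lower in every bleomycin library than in any control library, Mrc1 and Plet1 higher, and the other 5 genes overlap, with control library 21 far above the rest for Chil3 (1555 CPM).

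Fabp1 encodes a cytosolic fatty acid carrier best known from liver and also made by mouse alveolar macrophages. It was measured at 4.40, 5.89, 4.10 and 4.70 CPM in control libraries 3, 21, 24 and 26 and at 0.51, 0.31, 0.62, 0.21 and 0.19 CPM in WT bleomycin libraries 4, 2, 5, 4-B2 and 7. The groups lay far apart, although the WT values rest on only 3 to 10 estimated counts per library. The log2 fold change was -3.67 (SE 0.29, edgeR adjusted p = 3.01e-07), and 2 other genes of the 15315 tested had a lower log2 fold change.

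Ear1, a secreted ribonuclease, was measured at 24.8, 29.1, 22.5 and 22.1 CPM in control and at 4.12, 4.20, 3.62, 6.78 and 3.89 CPM in WT bleomycin libraries, in the same library order. All 5 WT libraries lay below all 4 controls, and 4-B2 stood above the other WT libraries. The log2 fold change was -2.45 (SE 0.18, edgeR adjusted p = 1.96e-07). Krt79, a keratin that macrophages of the air spaces make outside any epithelium, was measured at 16.9, 17.9, 12.5 and 12.8 CPM in control and at 2.03, 3.03, 3.12, 3.18 and 2.72 CPM in WT bleomycin libraries. The WT libraries sat close together, and the log2 fold change was -2.41 (SE 0.22, edgeR adjusted p = 1.21e-06).

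Mrc1, the mannose receptor CD206, and Plet1, a membrane-anchored glycoprotein, went the other way. Mrc1 was measured at 77.5, 122, 90.0 and 90.9 CPM in control and at 189, 225, 201, 196 and 181 CPM in WT bleomycin libraries (log2 fold change 1.06, SE 0.12, edgeR adjusted p = 5.54e-06). Plet1 was measured at 50.0, 64.9, 53.1 and 59.9 CPM in control and at 84.2, 103, 81.7, 114 and 71.2 CPM in WT bleomycin libraries (log2 fold change 0.67, SE 0.14, edgeR adjusted p = 0.000918). All 5 WT libraries lay above all 4 controls for both genes. No overlap of this kind was seen upward for 21.5% and downward for 18.8% of all genes tested.

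The remaining secreted and surface proteins overlapped between the groups. Ear2 was measured at 77.9, 116, 74.8 and 68.3 CPM in control and at 85.9, 88.1, 82.4, 112 and 79.8 CPM in WT bleomycin libraries (log2 fold change 0.09, SE 0.15, 95% interval -0.24 to 0.42, edgeR adjusted p = 0.656). Chil3 was measured at 375, 1555, 447 and 455 CPM in control and at 502, 867, 848, 756 and 533 CPM in WT bleomycin libraries (log2 fold change -0.01, SE 0.37, edgeR adjusted p = 0.978). Control library 21 decided this value: without it Chil3 was higher in WT bleomycin, with a log2 fold change of 0.72 (SE 0.23, edgeR adjusted p = 0.0227). Marco, a scavenger receptor for bacteria and particles, was measured at 9.03, 25.7, 5.06 and 9.47 CPM in control and at 19.1, 64.9, 11.1, 18.1 and 5.18 CPM in WT bleomycin libraries (log2 fold change 0.94, SE 0.63, edgeR adjusted p = 0.237). Its interval ran from -0.41 to 2.29, the widest of the 10 genes, and without WT library 2 the value was 0.11.

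Siglecf, a sialic acid receptor used to gate alveolar macrophages and eosinophils, was measured at 16.7, 15.6, 16.0 and 12.3 CPM in control and at 10.1, 15.0, 13.6, 16.5 and 7.65 CPM in WT bleomycin libraries. Its log2 fold change was -0.27 (95% interval -0.69 to 0.15, edgeR adjusted p = 0.270). Pparg was measured at 12.6, 17.2, 13.6 and 14.6 CPM in control and at 15.1, 13.5, 13.8, 14.8 and 10.0 CPM in WT bleomycin libraries. Its log2 fold change was -0.11 (95% interval -0.41 to 0.18, edgeR adjusted p = 0.515), so a loss of the size measured for Fabp1, Ear1 or Krt79 lay outside the interval for both genes.

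**Figure D2:**
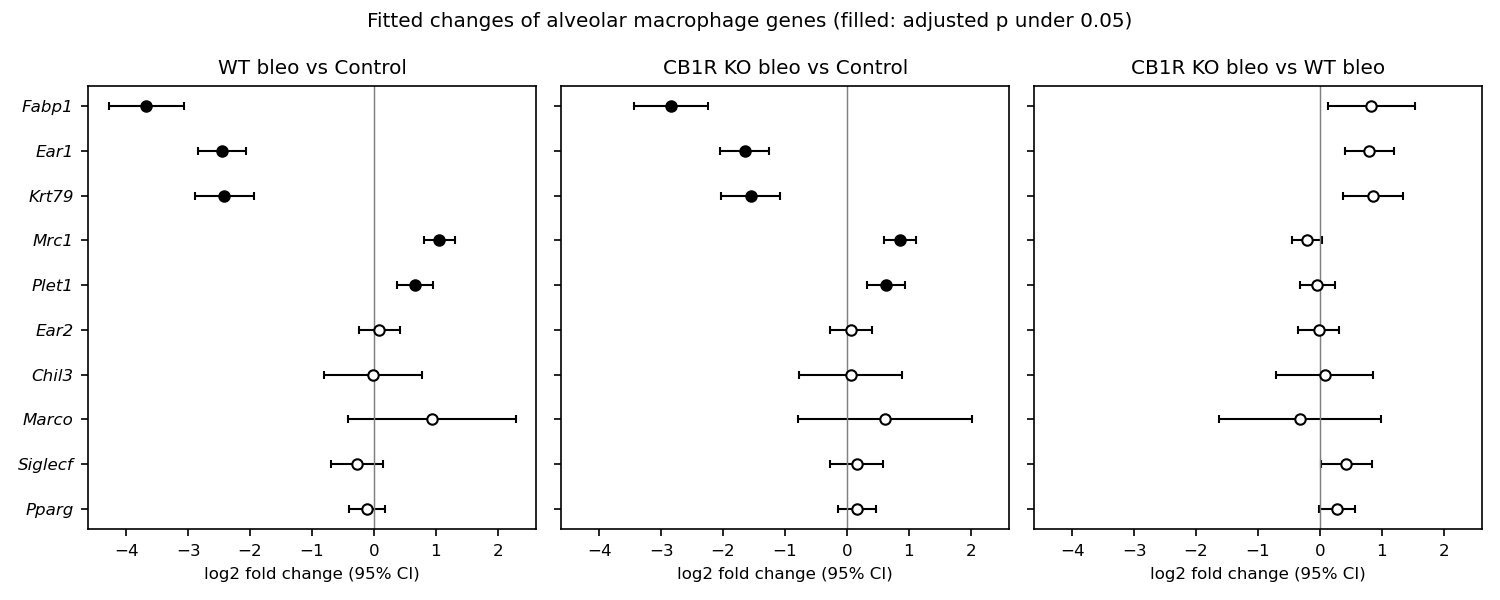
Log2 fold change (x axis, with 95% interval) of each gene in the 3 comparisons, filled where the adjusted p was under 0.05. Fabp1, Ear1 and Krt79 lie left of 0 and Mrc1 and Plet1 right of 0 in both comparisons with control, and no point is filled between CB1R KO and WT bleomycin.

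The paralogs Ear1 and Ear2 parted. Ear1 stood at 30.2 ± 3.36 TPM per 100 TPM of Ear2 in control (25.4 to 32.8, n = 4), at 5.12 ± 0.562 in WT bleomycin (4.82 to 6.13, n = 5) and at 9.08 ± 1.98 in CB1R KO bleomycin libraries (6.58 to 11.4, n = 4). None of the 3 ranges overlapped, and this ratio is given as a description with no test. The pair shares sequence in the transcripts as well: 47.7% of the 31-base words of the coding transcripts of Ear1 and 55.3% of those of Ear2 occur in another gene, 40.6% of the words of Ear1 in Ear2 itself (GENCODE M21, GRCm38). Kallisto divides reads from such words by estimate, so the split between the 2 genes is less certain than that of a gene with its own words. Chil3 shares 30.7% of its words, nearly all with Chil4, and in the 7 genes Marco, Mrc1, Fabp1, Pparg, Siglecf, Plet1 and Krt79 the share was between 0 and 1.63%.

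**Figure D3:**
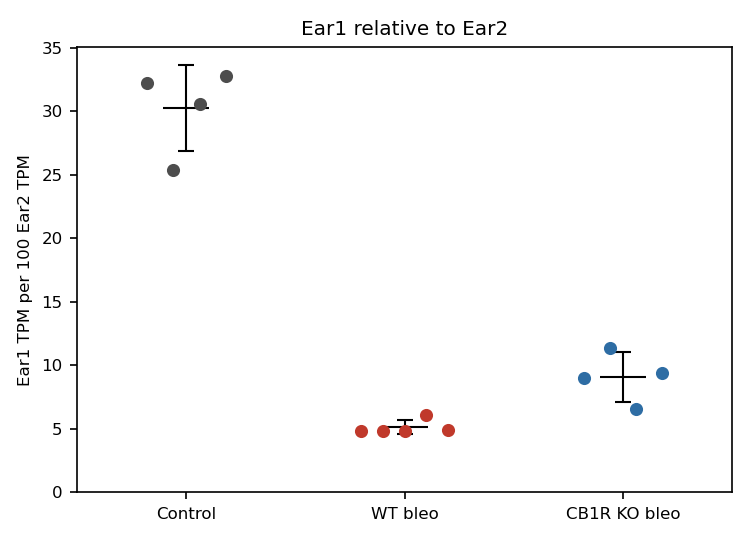
Ear1 TPM per 100 TPM of its paralog Ear2 (y axis) in each library, with the group mean and SD. Control libraries lie between 25.4 and 32.8, WT bleomycin libraries between 4.82 and 6.13 and CB1R KO bleomycin libraries between 6.58 and 11.4.

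Control library 21 was the highest control for 9 of the 10 genes, WT library 7 the lowest WT library for 7, and CB1R KO library 8 the lowest KO library for 8. Siglecf was the exception in the control group, with control library 3 the highest. In the WT group library 4-B2 was the highest for 5 genes, and in the KO group library 10 was the highest for 6. In the plot of each gene against its own mean, the sign of Fabp1, Ear1, Mrc1 and Plet1 nevertheless turns mainly at the border between control and bleomycin.

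**Figure D4:**
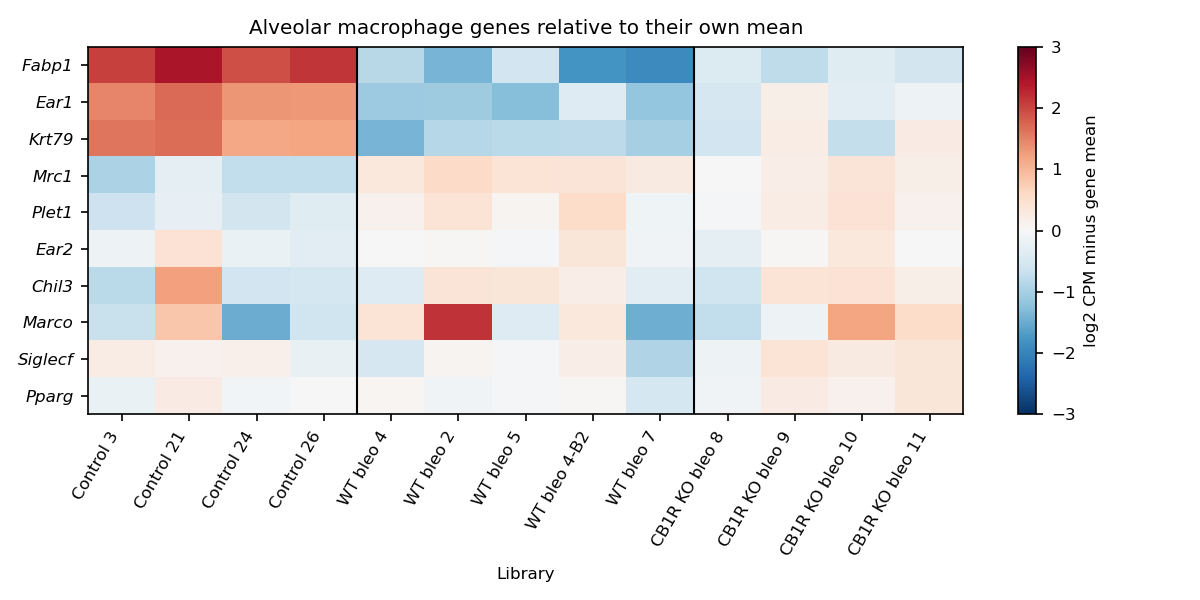
Log2 CPM of each gene (rows) minus its own mean over the 13 libraries (columns, grouped by treatment and genotype), on a color scale from -3 to 3. Fabp1, Ear1 and Krt79 are above their means in all 4 control libraries and Mrc1 and Plet1 below theirs, and control library 21 is the highest control for 9 of 10 genes.

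CB1R KO bleomycin and control lungs were compared next, which uses the same 4 control libraries as the comparison above. Again 5 of the 10 genes were called by edgeR, where 35.4% of all genes tested were called (19.0% higher, 16.3% lower), and 5 passed an unadjusted p under 0.05, where 45.5% of all genes did. Fabp1 was measured at 0.72, 0.54, 0.75 and 0.65 CPM in CB1R KO libraries 8, 9, 10 and 11, which is 14.0% of control (log2 fold change -2.84, SE 0.28, edgeR adjusted p = 5.95e-06). Ear1 was measured at 6.28, 10.0, 6.96 and 8.01 CPM, which is 31.8% of control (log2 fold change -1.65, SE 0.18, edgeR adjusted p = 1.70e-05). Krt79 was measured at 3.66, 6.51, 3.35 and 6.63 CPM, which is 34.1% of control (log2 fold change -1.55, SE 0.22, edgeR adjusted p = 0.000134). For all 3 genes every CB1R KO library lay below every control, as it did for 15.8% of all genes tested. Mrc1 was measured at 151, 172, 196 and 171 CPM (log2 fold change 0.86, SE 0.12, edgeR adjusted p = 0.000106). Plet1 was measured at 73.8, 90.6, 105 and 84.2 CPM (log2 fold change 0.63, SE 0.14, edgeR adjusted p = 0.00327). Both genes were above every control in each CB1R KO library, as were 17.7% of all genes tested. The 5 genes not called had log2 fold changes between 0.06 for Chil3 and 0.62 for Marco, and without control library 21 Chil3 was higher in CB1R KO bleomycin too (0.80, edgeR adjusted p = 0.0240).

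CB1R KO and WT bleomycin lungs were then compared to ask whether the genes differed by genotype after the same injury. The 3 genes that fell after bleomycin had higher values in CB1R KO than in WT lungs, by 1.74-fold to 1.82-fold, and none of the 10 passed the threshold after adjustment. The same WT libraries enter both comparisons, so WT values low by chance would deepen the fall and raise these folds alike. edgeR called 0 of 10, where 0.979% of all genes tested were called (0.359% higher, 0.620% lower). At an unadjusted p under 0.05, 4 of the 10 passed (Ear1, Krt79, Fabp1 and Siglecf), where 17.0% of all genes did, and DESeq2 on the same counts called 2, Ear1 and Krt79. The median log2 fold change of the 10 genes was 0.18, against 0.0005 for all genes tested.

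Krt79 was higher in all 4 CB1R KO libraries, listed above, than in any WT library, the highest of which stood at 3.18 CPM. Its log2 fold change was 0.86 (SE 0.23, 95% interval 0.38 to 1.35, edgeR adjusted p = 0.0805). Such a separation upward was seen for 2.50% of all genes tested, and downward for 3.10% but for 0 of the 10. Ear1 was higher in 3 of 4 CB1R KO libraries than in any WT library (log2 fold change 0.80, SE 0.18, 95% interval 0.40 to 1.19, edgeR adjusted p = 0.0567). The exception was CB1R KO library 8 at 6.28 CPM, which lay between WT library 4-B2 at 6.78 CPM and the other 4 WT libraries. Without WT library 4-B2 Ear1 passed the threshold (0.98, edgeR adjusted p = 0.0320), and without CB1R KO library 10 both Ear1 (0.85, edgeR adjusted p = 0.0329) and Krt79 (1.01, edgeR adjusted p = 0.0220) did. Fabp1 was higher in 3 of 4 CB1R KO libraries than in any WT library (log2 fold change 0.83, SE 0.33, 95% interval 0.13 to 1.53, edgeR adjusted p = 0.215), at counts as low as 3 per library.

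Siglecf was measured at 12.8, 19.1, 17.1 and 18.5 CPM in CB1R KO bleomycin libraries, 3 of them above every WT library (log2 fold change 0.43, 95% interval 0.02 to 0.84, edgeR adjusted p = 0.272). Pparg was measured at 13.3, 17.1, 15.7 and 18.6 CPM, again 3 of them above every WT library (log2 fold change 0.27, 95% interval -0.01 to 0.56, edgeR adjusted p = 0.318). Mrc1 had a log2 fold change of -0.20 (95% interval -0.44 to 0.04, edgeR adjusted p = 0.389), with 3 of 4 CB1R KO libraries below every WT library. Ear2 was measured at 70.9, 89.1, 107 and 86.3 CPM, Chil3 at 434, 877, 897 and 750 CPM and Marco at 8.63, 12.9, 32.8 and 21.2 CPM, all overlapping the WT libraries. Their log2 fold changes were -0.02 for Ear2, 0.08 for Chil3 and -0.32 for Marco, that of Plet1 was -0.04, and their intervals all included 0. The narrowest of these 4 intervals, that of Plet1, ran from -0.32 to 0.24, and the widest, that of Marco, from -1.62 to 0.98.

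Other genes of the alveolar macrophage were read from a list of 20, of which 19 were tested and the paralog Ear10 had at most 1 count in any library. In WT bleomycin lungs 11 rose and 2 fell, where 25.0% of all genes tested were called higher and 23.9% lower. Those that rose included Ctsk, a lysosomal protease (log2 fold change 2.10), Siglec1, the sialic acid receptor CD169 (1.41), Olr1, a receptor for oxidized lipoprotein (1.19), and Itgax, the integrin CD11c (1.14). Those that fell were Cidec, a lipid droplet protein (-2.14), and Car4, a membrane carbonic anhydrase (-0.98). Car4 stood at a mean of 217 TPM in control lungs. The cells of the lung that made the genes of this list, Car4 and Ctsk among them, were not told apart. The summed TPM of the list was 1340 to 1483 in control, 1559 to 1956 in WT bleomycin and 1757 to 1912 in CB1R KO bleomycin libraries. Against control, 10 rose and 1 fell in CB1R KO bleomycin lungs, where 19.0% of all genes tested were called higher and 16.3% lower. The same shares of all genes stand beside the counts of the lists below.

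The pathway above these genes was also measured. Of 16 genes of the GM-CSF receptor pathway and of alveolar macrophage transcription factors, 8 rose and 3 fell in WT bleomycin lungs. The receptor subunits Csf2ra (log2 fold change 1.13), Csf2rb (1.23) and Csf2rb2 (1.68) rose, and so did the factors Egr2 (1.53) and Bhlhe40 (1.23) and Spi1 (0.69), which encodes PU.1. Bhlhe41 (-0.73), Stat5b (-0.57) and Nr1h3 (-0.33), the oxysterol receptor LXR alpha, fell. Csf2, the gene of GM-CSF itself, had a log2 fold change of 0.40 and was not called. Of 14 PPARG targets and lipid handling genes, 7 rose, among them Scarb1, the receptor of high-density lipoprotein (1.21), and the lysosomal lipid genes Lipa (0.92) and Npc2 (0.71), and 4 fell, among them the fatty acid transporter Cd36 (-0.45) and Acaa2, an enzyme of fatty acid oxidation (-0.56). Cd36 stood at a mean of 817 TPM in control lungs. The cells of the lung that made the genes of these lists were not told apart, so their changes are not read as those of macrophages. In CB1R KO bleomycin lungs 7 rose and 1 fell of the 16 genes and 6 rose and 2 fell of the 14, against the same controls. None of the 19, 16 or 14 was called by edgeR between CB1R KO and WT bleomycin, where 0.979% of all genes tested were. In that comparison 4, 7 and 6 passed an unadjusted p under 0.05, where 17.0% of all genes did.

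Macrophage genes that are not particular to the air spaces moved with the fall of Fabp1, Ear1 and Krt79, and their part in it was not tested. Of 10 pan-macrophage genes 7 rose in WT bleomycin lungs, among them Fcgr1 (log2 fold change 2.22), Aif1 (1.80), Cd68 (1.37) and Adgre1 (1.28), and Mertk fell (-0.34). Their summed TPM was 6769 to 7567 in control, 7109 to 10384 in WT bleomycin and 10648 to 11675 in CB1R KO bleomycin libraries, of which Lyz2, the gene of lysozyme, made up 85.3% to 91.6% in every library. Without Lyz2 the sum of the other 9 genes was 736 to 809, 1045 to 1232 and 978 to 1151 TPM in the same order, so that the WT and CB1R KO libraries overlapped. The lysosomal gene Lamp1 was the largest part of that sum, at means of 507, 602 and 605 TPM in the same order. Which cells of the lung made Lyz2 and Lamp1 was not tested, so neither sum is read as macrophage content. Between CB1R KO and WT bleomycin 2 of the 10 had positive log2 fold changes, with a median of -0.10, and 0 were called by edgeR. An unadjusted p under 0.05 was met by 3 of the 10, where 17.0% of all genes tested met it. Of 15 genes of monocyte-derived and scar-associated macrophages 12 rose and 0 fell, with log2 fold changes of 3.81 for Spp1, 3.24 for Trem2 and 2.98 for C1qb. Their summed TPM was 1164 to 1422 in control and 5747 to 6177 in WT bleomycin libraries, with 3956 to 6330 in CB1R KO bleomycin libraries. Of 10 genes of alternative activation 8 rose and 0 fell, led by Chil4 (5.04), the paralog of Chil3, and Retnla (3.74). Their summed TPM was 149 to 724 in control, 1728 to 3925 in WT bleomycin and 830 to 1588 in CB1R KO bleomycin libraries. Every CB1R KO library thus lay below every WT library. Retnla alone made up most of this sum, at a mean of 2779 TPM in WT and 861 TPM in CB1R KO bleomycin libraries. Between CB1R KO and WT bleomycin 0 of these 10 genes had positive log2 fold changes, with a median of -0.43, and 0 were called by edgeR. An unadjusted p under 0.05 was met by 5 of them, against 17.0% of all genes tested. Among 9 interstitial macrophage genes 2 rose, including Folr2 (0.94), and 2 fell, including Cbr2 (-1.90). Cbr2 stood at a mean of 6287 TPM in control lungs, against 8.22 TPM for Folr2. Which cells of the lung made it was not tested, so its fall is not read as one of macrophages. Against control, CB1R KO bleomycin lungs had 8 of the 10 pan-macrophage genes higher and 1 lower, 12 of the 15 monocyte-derived genes higher and 7 of the 10 alternative activation genes higher. The lists were chosen with results of these samples known, so their directions are not independent evidence.

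**Figure D5:**
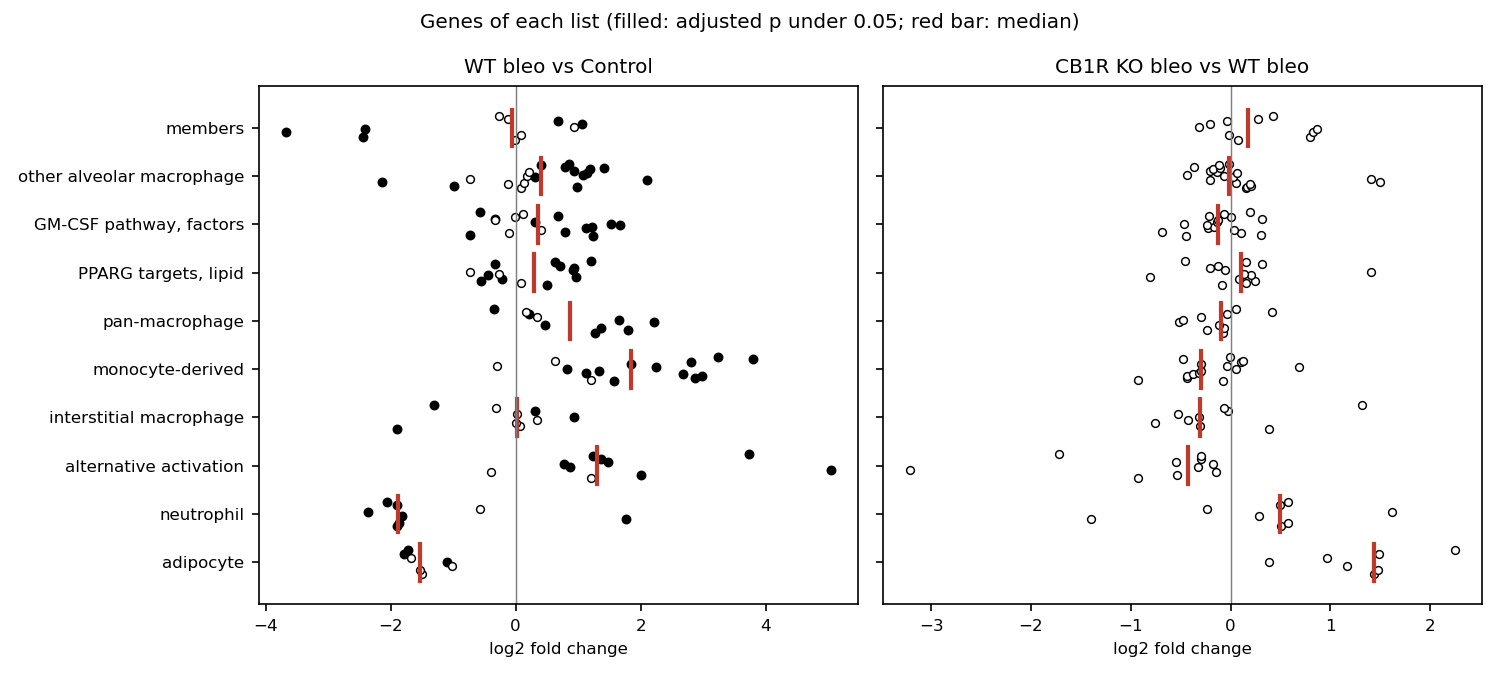
Log2 fold change (x axis) of each tested gene of 10 lists (rows) for WT bleomycin against control and CB1R KO against WT bleomycin, filled where the adjusted p was under 0.05, with the list median as a red bar. In the left panel the lowest point is Fabp1 at -3.67, while the pan-macrophage, monocyte-derived and alternative activation lists lie mostly right of 0, and no point is filled in the right panel.

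Several of the 10 genes are also made by other cells, whose markers were read beside them. Eosinophils share Siglecf and the Ear ribonucleases: Epx, their peroxidase, had 0 to 2 counts and Prg3 0 to 13 counts in a library, and the summed TPM of 6 eosinophil genes was 2.53 to 8.06 in control, 4.09 to 6.02 in WT bleomycin and 3.32 to 8.05 in CB1R KO bleomycin libraries. Liver and gut cells share Fabp1: Apoa1, Apoa2, Ttr, Fabp2 and Apoc3 had at most 20 counts in any library, and the summed TPM of the list of 6 was between 1.51 and 4.57 in the 13 libraries. Keratinocytes share Krt79, and of 6 keratinocyte and basal cell genes 2 rose (Sprr1a, 3.70, and Krt17, 2.85) and 0 fell, with a summed TPM of 2.11 to 7.61 in control and 20.5 to 25.8 in WT bleomycin libraries, opposite in direction to Krt79. Lymphatic endothelium shares Mrc1, and of 5 of its genes 4 rose, including Prox1 (1.87), with a summed TPM of 133 to 181 in control, 358 to 490 in WT bleomycin and 273 to 542 in CB1R KO bleomycin libraries. Neither its part in the rise of Mrc1 nor that of the other macrophages listed above was tested. Of 6 dendritic cell genes 2 rose and 2 fell, with Flt3 at 0.69 and Clec9a at -1.14.

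Adipocytes share Pparg. Of 7 adipocyte genes tested, 3 fell in WT bleomycin lungs, among them Plin1 (log2 fold change -1.79) and Retn (-1.72). The summed TPM of the 9 listed was 62.9 to 316 in control, 29.1 to 181 in WT bleomycin and 71.7 to 321 in CB1R KO bleomycin libraries. Between CB1R KO and WT bleomycin 7 of 7 had positive log2 fold changes with a median of 1.44, and 0 were called by edgeR. An unadjusted p under 0.05 was met by 4 of the 7, against 17.0% of all genes tested. Fat genes thus stood in the same direction as Pparg, Cidec (1.50) and Fabp4 (1.41) in that comparison, and their part was not tested. Neutrophil precursors share Chil3, and of 8 neutrophil genes tested 6 fell, including S100a9 (-2.06), and 1, Ltf, rose in WT bleomycin lungs, with a summed TPM of 323 to 1753 in control and 256 to 453 in WT bleomycin libraries.

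Of 8 lung epithelial genes 5 fell in WT bleomycin lungs, among them Sftpc (log2 fold change -0.83) and Sftpa1 (-1.16). These were the only 2 genes of the 15 lists called between CB1R KO and WT bleomycin, at 0.66 for Sftpc (edgeR adjusted p = 0.0289) and 0.84 for Sftpa1 (edgeR adjusted p = 0.0371), both higher in CB1R KO. The calls depended on single libraries and on the fit: over 25 alternatives Sftpc stayed called in 12 and Sftpa1 in 13, and the lowest log2 fold changes were 0.56 and 0.69. Both calls were lost without WT library 2, 5, 4-B2 or 7, without CB1R KO library 8, 9 or 11, with edgeR on the 2 groups and with the label style as a term or only lower-case labels, at edgeR adjusted p of 0.0565 to 0.240 for Sftpc and 0.0637 to 0.270 for Sftpa1. Both were also lost with limma on log2(TPM + 1) and no filter, that of Sftpc with the other limma settings and that of Sftpa1 without control library 24. Surfactant genes of type II cells thus stood in the same direction as Krt79, Ear1 and Fabp1 in that comparison, and their part in those values was not tested.

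Likeness to the 10 genes was measured as the root mean square difference of a gene from their mean, on log2 CPM minus each gene's own mean over the 13 libraries. The nearest of 15305 other genes were Elf5, an epithelial transcription factor, at 0.175, Cyb561a3 at 0.188, Taf5 at 0.207, Zswim9 at 0.211 and Fut10 at 0.211, where the mean of the 10 genes spanned 1.54. Behind them stood Pcdh17, Olfr95, Zfp931, Tie1 and Kcnq1, at 0.212 to 0.217. None of these is among the other alveolar macrophage genes listed. The mean pools genes that fell with genes that rose, so a gene near it need not resemble any of the 10. Taken gene by gene, the nearest to Krt79 was Ear1, at 0.264. For every other gene of the 10 the nearest lay outside the 10. The nearest to Ear1 was Tmem132d, at 0.260, and the nearest to Fabp1 was Bex2, at 0.457.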

How the data were processed

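The authors quantified paired-end reads with Kallisto on an Ensembl mouse index (GRCm39 in the submitters' processing notes) and deposited estimated counts and TPM, summed per gene over protein-coding transcripts. In this work the estimated counts were rounded and filtered with filterByExpr. After TMM scaling, edgeR 4.0.16 in R 4.3.3 (quasi-likelihood) fitted all 13 libraries at once with 1 coefficient per group, and p-values of the 15315 genes kept were adjusted by Benjamini-Hochberg. The fit was tested on simulated data for WT bleomycin against control and CB1R KO against WT bleomycin. Of genes given a log2 fold change of 1 in either direction, 92 of 98 were called with the right sign in each. False calls numbered 12 and 7 in that order, of 15200 genes tested. Genes of low mean level, Fabp1 among them, were not given changes, so detection at such levels was not tested. 1 TPM column matched no sample and was not used, nor were the authors' own comparisons. p-values set the difference between groups against the spread between libraries, each taken as 1 mouse.

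The members and lists were chosen with earlier results of these data known. Genes named were the members, in each list up to 4 called with the lowest p per comparison, markers at or near 0, and the 10 genes most like the mean of the members. Fabp4, Cidec, Olr1, Csf2, Stat5b, Spi1, Bhlhe40, Bhlhe41, Nr1h3, Cd36, Acaa2, Mertk, Trem2, Retnla, Chil4 and Ltf fall outside that rule and were chosen after their values were seen. Alternatives used DESeq2 1.42.0, limma 3.58.1 on log2(TPM + 1) and log2(TPM + 0.1), other filters and scalings, the style of the sample labels, and each library left out. Python 3.11.15 with Biopython searched motifs in RefSeq start regions and both strands.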

Additional observations from a re-analysis of the deposited data

Results flagged for a closer look

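Of 30 sets of CPM values (10 genes in 3 groups), 4 held a library set apart from the rest by Dixon's criterion, which chance alone meets in about 1 in 20 sets. In control library 21 Chil3 stood at 1555 CPM, where the other 3 controls stood at 375 to 455 CPM. The same library had Retnla at 159 CPM against 17.9 to 32.2 CPM and Chil4 at 1.92 CPM against 0.18 to 0.32 CPM in the other controls, and their part in the level of Chil3 was not tested. In WT bleomycin library 2 Marco stood at 64.9 CPM, where the other WT libraries stood at 5.18 to 19.1 CPM. In WT bleomycin library 4-B2 both paralogs were set apart, Ear1 at 6.78 CPM against 3.62 to 4.20 CPM and Ear2 at 112 CPM against 79.8 to 88.1 CPM.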

How the results depend on the processing

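With 25 alternatives for each gene (24 for Fabp1, which a minimum of 10 counts per library removed), Fabp1, Ear1, Krt79, Mrc1 and Plet1 kept their direction and their call against control in both bleomycin groups. Without control library 21 a further gene, Chil3, was called in both. Between CB1R KO and WT bleomycin the number of the 10 genes called went from 0 to 2 with DESeq2 (Ear1 and Krt79) and to 1 with limma on log2(TPM + 1) or log2(TPM + 0.1) (Ear1). It was between 0 and 2 with libraries left out, 1 without WT 4-B2 (Ear1) and 2 without CB1R KO 10 (Ear1 and Krt79). Over the alternatives the adjusted p in that comparison was 0.00277 to 0.190 for Ear1 and 0.0141 to 0.307 for Krt79.

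Genes called between CB1R KO and WT bleomycin, 150 as reported, were 640 with DESeq2, 88 with edgeR on the 2 groups, 93 with limma on log2(TPM + 0.1), 25 with limma on log2(TPM + 1) and no filter, 41 with the label style as a term and 6 with only lower-case labels. With libraries left out they were 1 to 653: 85 without control 24, 230, 62, 24, 30 and 35 without WT 4, 2, 5, 4-B2 and 7, and 9, 1, 653 and 3 without CB1R KO 8, 9, 10 and 11.

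Values that turned in sign were small, other than those with control 21 or WT 2 left out. The log2 fold change of Chil3 against control became 0.25 in WT bleomycin with each limma setting and 0.077 with the label style as a term, and ranged from -0.22 to 0.72 with libraries left out. In CB1R KO bleomycin it became -0.013 with the label style as a term and -0.094 with only lower-case labels (-0.14 to 0.80 with libraries left out). Between CB1R KO and WT bleomycin Chil3 became -0.090 and -0.00072 (-0.028 to 0.26). With only lower-case labels Ear2 became -0.062 in WT bleomycin and -0.015 in CB1R KO bleomycin against control, and 0.047 between the 2 bleomycin groups. With libraries left out Ear2 ranged over -0.0058 to 0.28, -0.031 to 0.26 and -0.12 to 0.074 in the same order. Between CB1R KO and WT bleomycin Marco ranged from -0.70 to 0.51, the last without WT 2, and Plet1 from -0.13 to 0.056. The cause was not tested in any of these. No paired analysis was possible because the replicate numbers in the labels differ between the groups.

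Depth limits Fabp1 most, with 3 to 10 counts in each WT bleomycin library, and the median SE of a log2 fold change over all genes tested was 0.11 to 0.12.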
